A study of Mus musculus with 6 samples.

Results

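The genes described here are 35 genes of the mitotic spindle, the kinetochore, the spindle checkpoint and the enzymes that drive entry into and exit from mitosis, measured in mouse alveolar type II (ATII) cells and in alveolarspheres grown from them. They are a list of names, drawn up with earlier results of these data known, and all 35 were found by gene symbol among the 52636 gene identifiers of the count matrix. ATII cells are the surfactant-making cells of the lung alveolus and divide to replace alveolar epithelium, and alveolarspheres are the hollow colonies that they form in culture.

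The labels describe 3 expression libraries and 3 tag (hto) libraries of single cells, and assignment of cells by tag was not analysed here. The day 13 culture of ATII cells from young and old mice gave one pair, the day 13 culture from young mice another, and freshly sorted ATII cells of young and old mice at day 0 the last. Every library carries the genotype label IL4Ra WT and the treatment label "mixed sample". In the cultures, cytokine (IL-4 in the series title) at 10 ng/ml or PBS as the control was added on day 3 and cells were collected on day 13 (the cytokine is spelled with another interleukin number in the design text than in the series title), in medium without serum or feeder cells. Live cells were loaded on the 10x Genomics 3' platform, which counts each captured RNA molecule once by its unique molecular identifier (UMI).

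The matrix holds 3 groups of cell barcodes that carry a number and no name, and no label ties a number to a day, an age or a treatment. They are called libraries A, B and C here, each is a sample with no replicate, and no ratio between them was formed. After filtering, library A held 16367 cells with a median of 3749 UMIs, library B 5593 cells with 8349 UMIs and library C 14580 cells with 3341 UMIs. The 12 ATII markers examined each reached at least 20 CPM (UMIs of a gene scaled to a common library total) in every library, led by the surfactant gene Sftpc at 116228 to 255076 CPM, and the pan-immune marker Ptprc was at 0.0188 to 0.0314 CPM. Markers of other cell types were also present. The airway secretory gene Scgb1a1 was at 2503 CPM in A, 85.7 in B and 30.2 in C, and the endothelial gene Pecam1 at 88.7 CPM in A. Of 4 B cell markers 1, Cd79b, reached 20 CPM, at 25.9 CPM in A, 131 in B and 144 in C. Between 20 and 67 barcodes were shared by any pair of libraries. With 1 library per group no test was possible, cells are not replicates, and the 95% intervals below cover counting error only.

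A dividing cell copies its DNA in S phase and then separates the copies in mitosis. Cyclins A and B with the kinase Cdk1 start mitosis, the kinases Plk1, Aurora A and Aurora B shape the spindle, and the kinetochore links chromosomes to microtubules while the checkpoint holds back the anaphase-promoting complex (APC/C) until all are attached. The APC/C, with its activator Cdc20 and its E2 enzyme Ube2c, then marks securin and the B cyclins for destruction. Transcription of many of these genes is held down in G1 by the DREAM complex and raised in G2 by B-Myb and FoxM1, in mammalian cells through a promoter element named CHR that often lies next to CCAAT boxes, whereas genes of S phase are more often read through E2F sites. In the adult lung most ATII cells are not dividing.

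The promoters of 5 members are shown because these members stood at the ends of the comparisons below: Pclaf, whose product binds the replication clamp PCNA, was the most tied to S phase markers, Ccnb2 was among the least, Cdc20 had the lowest ratio by Retnla, Ube2c had the highest level, and Cdk1 encodes the kinase at the centre of the set. Each stretch runs 5′ to 3′ from 120 bases before to 30 bases after the RefSeq start on GRCm38.p6: Pclaf chr9:65890203-65890352 on the plus strand, Cdk1 chr10:69352883-69353032 on the minus strand, Ube2c chr2:164769809-164769958 on the plus strand, Ccnb2 chr9:70421525-70421674 on the minus strand and Cdc20 chr4:118437314-118437463 on the minus strand. Capitals mark matches on either strand to the CHR, searched as TTTGAA and also as TTCGAA, to the CCAAT box, and to the E2F site, searched as TTTGGCG and also as TTTCCCG.
Pclaf: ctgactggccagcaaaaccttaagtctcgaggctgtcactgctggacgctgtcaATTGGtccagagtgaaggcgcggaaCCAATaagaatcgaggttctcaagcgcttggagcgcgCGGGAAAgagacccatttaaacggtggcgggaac
Cdk1: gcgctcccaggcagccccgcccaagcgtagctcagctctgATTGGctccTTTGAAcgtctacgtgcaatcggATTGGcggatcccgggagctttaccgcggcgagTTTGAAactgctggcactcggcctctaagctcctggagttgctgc
Ube2c: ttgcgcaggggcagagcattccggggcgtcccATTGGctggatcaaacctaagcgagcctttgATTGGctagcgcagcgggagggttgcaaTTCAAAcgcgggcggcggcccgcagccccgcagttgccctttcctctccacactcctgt
Ccnb2: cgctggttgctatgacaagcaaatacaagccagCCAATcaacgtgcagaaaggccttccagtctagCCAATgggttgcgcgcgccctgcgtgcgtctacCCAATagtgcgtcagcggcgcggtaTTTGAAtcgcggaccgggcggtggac
Cdc20: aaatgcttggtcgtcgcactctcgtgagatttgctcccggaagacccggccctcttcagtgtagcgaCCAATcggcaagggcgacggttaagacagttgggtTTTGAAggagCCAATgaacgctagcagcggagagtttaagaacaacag
Pclaf holds 2 CCAAT matches and 1 E2F match and no CHR match in this window, while Cdk1 holds 2 CHR and 2 CCAAT matches. Ube2c and Cdc20 hold 1 CHR and 2 CCAAT matches each, and Ccnb2 holds 1 CHR and 3 CCAAT matches.

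RefSeq promoters of 300 bases, 250 before to 50 after the start, were at hand for 29 of the 35 members. A CHR match lay in 24 of these 29 (82.8%), against 19.4% of all 27025 promoters of the table. CCAAT was present in 24 (82.8%, against 37.9%), and both together in 21 (72.4%, against 7.70%). E2F was found in 3 (10.3%, against 4.98%), the promoters of Birc5, Nusap1 and Pclaf. Many CHR matches lay at or shortly after the start: with only the last 150 bases before the start searched, CHR was found in 27.6% of member promoters, against 9.89% of all, and CCAAT again in 82.8%, against 25.3%. These are matches of letters, not binding sites.

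The members were near their floor in library A and expressed in libraries B and C. Their summed level was 94.8 CPM in library A (interval 92.4 to 97.2), 1506 CPM in library B (interval 1495 to 1517) and 1979 CPM in library C (interval 1967 to 1991). The median member stood at 0.801 CPM in A, 30.8 CPM in B and 40.8 CPM in C. Of the 35 members, 2 reached 10 CPM in A, the condensin gene Smc4 and the spindle-bundling gene Nusap1, and 33 did so in both B and C, the exceptions being the kinesin Kif20a and the kinetochore gene Ndc80.

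Among the cyclins and their kinase, Cdk1 had 0.723 CPM in A, 62.9 in B and 81.5 in C. Ccnb1, cyclin B1, had 0.597 CPM in A, 24.6 in B and 36.5 in C, and its relative Ccnb2 had 2.50 CPM in A, 41.5 in B and 57.8 in C. Ccna2, cyclin A2, had 0.361 CPM in A, 24.9 in B and 31.8 in C. In each of these genes library A lay far under the other libraries and library C was the highest. Of the mitotic kinases, Plk1 had 0.251 CPM in A, 19.4 in B and 24.7 in C. Aurka, the spindle pole kinase, had 0.880 CPM in A, 25.1 in B and 35.4 in C. Aurkb, the kinase of the chromosomal passenger complex, had 0.236 CPM in A, 18.9 in B and 24.4 in C, and it was the lowest member in A. Its partner Birc5 (survivin) had 1.90 CPM in A, 75.1 in B and 119 in C.

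At the kinetochore, Cenpa, the centromeric histone H3, had 0.503 CPM in A, 72.1 in B and 104 in C. Knl1, the scaffold on which checkpoint proteins gather, had 0.801 CPM in A, 19.1 in B and 21.5 in C. The checkpoint kinase Bub1 broke the pattern of the set, with 9.55 CPM in A, 15.3 in B and 15.9 in C, and Bub1b (BubR1) had 4.12 CPM in A, 11.0 in B and 13.7 in C. On the side of the APC/C, Cdc20 had 4.19 CPM in A, 49.1 in B and 76.99 in C. Ube2c had 1.82 CPM in A, 207 in B and 297 in C, the highest member in B and C. Of the proteins that handle chromosomes and microtubules, Top2a (topoisomerase II alpha) had 2.97 CPM in A, 104 in B and 116 in C. Prc1, which bundles the midzone of the spindle, had 8.09 CPM in A, 76.4 in B and 89.5 in C. Mki67, the proliferation marker Ki-67, had 2.89 CPM in A, 67.8 in B and 48.9 in C. Smc4 had 24.2 CPM in A, 81.1 in B and 61.8 in C. Mki67 and Smc4 were the 2 of these genes with a higher value in B than in C. Pclaf had 0.377 CPM in A, 51.9 in B and 98.6 in C. The rest of the set had the same order of libraries, lowest in A and highest in C. Cdca8 (borealin), a partner of Aurkb, had 0.817 CPM in A, 55.7 in B and 89.6 in C. Of the outer kinetochore, Ndc80 had 0.440 CPM in A, 6.96 in B and 8.66 in C and its partner Spc25 0.566 CPM in A, 17.2 in B and 21.9 in C. Cenpe, the kinetochore motor, had 0.330 CPM in A, 25.2 in B and 28.3 in C, and Cenpf had 1.90 CPM in A, 71.2 in B and 93.5 in C. The kinesins were of middle to low level: Kif11, which slides spindle microtubules apart, had 0.550 CPM in A, 13.7 in B and 16.1 in C, and the cytokinesis motors Kif20a, Kif20b and Kif23 had 0.566 CPM in A, 6.25 in B and 8.44 in C, 0.801 CPM in A, 15.8 in B and 19.7 in C, and 1.92 CPM in A, 21.6 in B and 23.8 in C. Of the microtubule-binding factors, Tpx2, the activator of Aurora A, had 0.675 CPM in A, 30.8 in B and 42.9 in C, Nusap1 had 12.9 CPM in A, 39.1 in B and 65.1 in C, and Hmmr, a spindle assembly factor, had 0.864 CPM in A, 51.1 in B and 67.3 in C. The condensin subunit Smc2 had 3.97 CPM in A, 34.5 in B and 40.8 in C, the mitotic kinase Pbk 0.597 CPM in A, 21.2 in B and 34.2 in C, and the CDK phosphatase Cdkn3 0.440 CPM in A, 35.3 in B and 49.5 in C. Fbxo5, the APC/C inhibitor, had 0.487 CPM in A, 13.5 in B and 13.7 in C, nearly level between B and C. CPM of 3' counts was not divided by gene length. These levels order libraries within a gene, and where members are ranked within a library the rank is of UMIs counted alone.

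**Figure D1:**
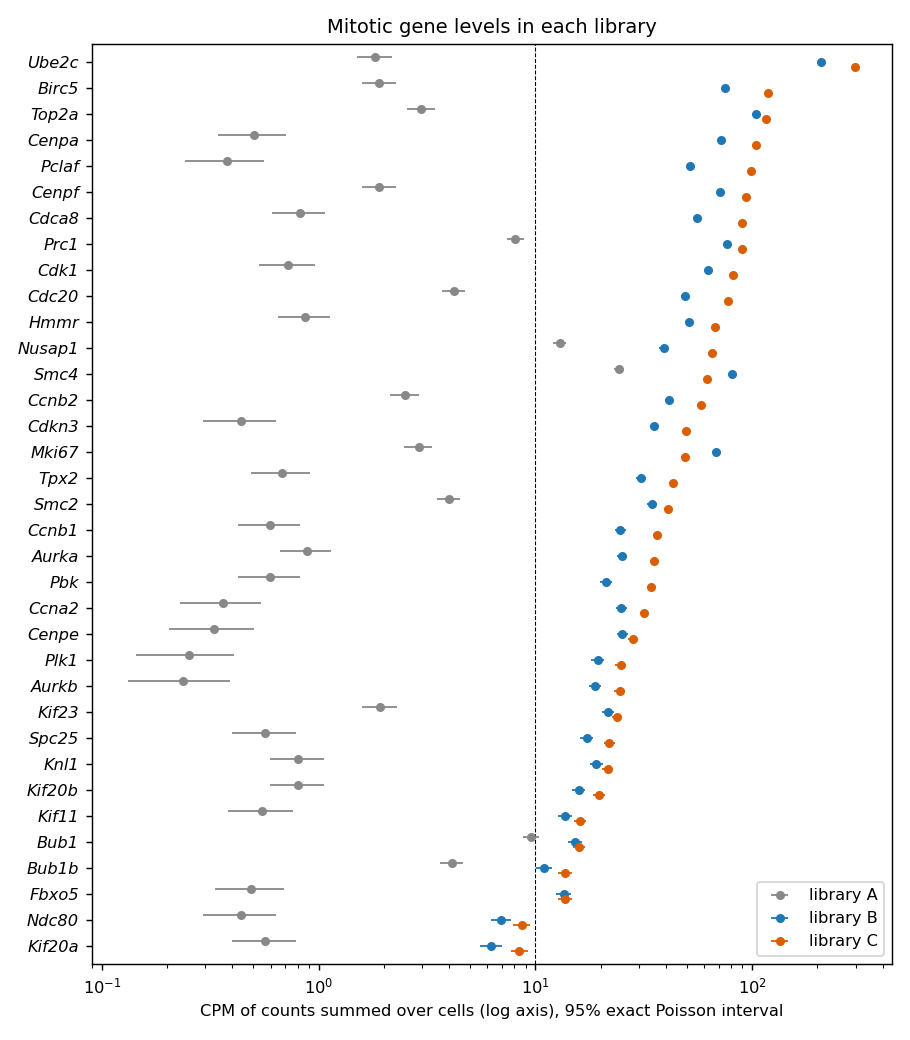
Level in CPM of each of the 35 members in libraries A, B and C (points, log axis) with 95% exact Poisson intervals (bars); the dashed line marks 10 CPM. Nearly all members lie near or under 10 CPM in library A and above it in libraries B and C, while Bub1 shows the narrowest spread on the log axis, from 9.55 to 15.9 CPM.

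Some annotated members share their locus with another gene. GENCODE places a gene on the opposite strand over 13 members, among them Oip5 over Nusap1, Elovl1 over Cdc20, Tnnc2 over Ube2c, Trip4 over Pclaf and Exosc9 over Ccna2, and a gene on the same strand over 7. Whether strand was used in counting is not given in the sources used here, so reads of such partners may be mixed.

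Members were detected together in the same cells. With every cell thinned at random to 2000 UMIs, 17 of 16079 cells in library A held UMIs of 5 or more members (0.106%, interval 0.0616 to 0.169). In library B there were 706 of 5564 (12.7%, 11.8 to 13.6), and in library C 2226 of 13291 (16.7%, 16.1 to 17.4). The cells with 5 or more members had a median of 10 members in B and in C and of 12 in A. The share of cells with a UMI of a given member, thinned in the same way, had a median over the members of 0.124% in A, 4.31% in B and 5.33% in C, and it was highest for Ube2c in B (14.1%) and in C (19.5%). In cells with no other member these medians were 0.0938% in A, 0.550% in B and 0.469% in C. Thinning left out 288 cells of A, 29 of B and 1289 of C with fewer UMIs, and unthinned the medians were 0.196% in A, 11.3% in B and 9.57% in C.

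Co-detection was broad. Over the 595 pairs of members the median phi coefficient, a correlation of presence across cells of a library, was 0.195 in B and 0.188 in C. The highest was that of Birc5 and Ube2c, at 0.456 in B and 0.463 in C. The lowest was that of Kif20a and Ndc80, the least abundant members, at 0.0101 in B and 0.0413 in C. Cells of a library share its depth and its free RNA, and these values are a description.

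The cells in which each member's UMIs lay set library A apart. In libraries B and C the cells with 5 or more other members held 23.2% to 26.7% of all UMIs, but a median of 93.6% of a member's UMIs in B and of 92.5% in C. The highest shares were those of Hmmr, a spindle assembly factor, in B (97.9%) and Nusap1 in C (97.5%). The lowest were those of Smc4, with 64.5% in B and 70.5% in C. In library A the median was 37.0%, and members spread over the whole range. Cells were not thinned here, and for Aurkb 22 cells of A held 5 or more other members. All 15 UMIs of Aurkb lay in such cells, as did 87.0% of the 46 of Cdk1, 81.6% of the 38 of Pbk, a mitotic kinase, and 81.0% of the 116 of Ube2c. By contrast 0.987% of the 608 UMIs of Bub1 did, 2.67% of the 262 of Bub1b, 3.88% of the 824 of Nusap1 and 4.22% of the 1539 of Smc4.

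In cells with no other member, Nusap1 stood at 11.8 CPM in A, 1.23 in B and 1.30 in C, and Bub1 stood at 9.23 CPM in A, 0.945 in B and 0.817 in C. For these 2 genes the cells with no sign of the rest of the set had the highest level in library A, whereas their level over all cells was lowest there. The same held for Bub1b (4.04 CPM in A, 2.24 in B and 1.96 in C) and Smc2 (3.28 CPM in A, 1.78 in B and 2.62 in C). Near the floor the order was the same for Kif20a (0.403 CPM in A, 0.190 in B and 0.241 in C) and Ndc80 (0.361 CPM in A, 0.0951 in B and 0.241 in C). These rest on very few UMIs, for Kif20a 0.658% of its 304 in B and 1.11% of its 450 in C. For Ndc80 they were 0.295% of its 339 in B and 1.08% of its 462 in C, so the order of these 2 genes is weakly founded. Smc4, which also has a place in chromosomes outside mitosis, stood at 22.7 CPM in A, 33.7 in B and 23.4 in C, and Prc1 at 6.49 CPM in A, 10.8 in B and 10.2 in C. Depth per cell differed between the libraries, and its part in these values was not tested.

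**Figure D2:**
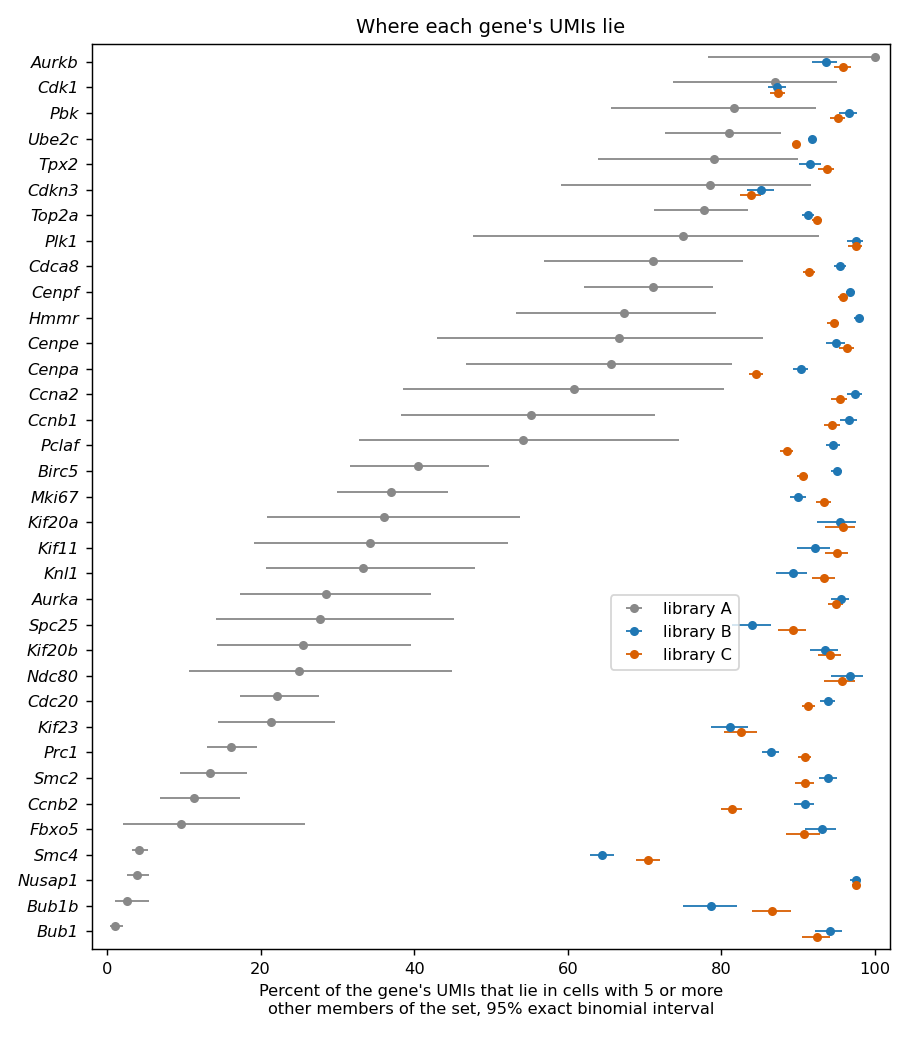
Percent of each member's UMIs that lie in cells with 5 or more other members (points), by library, with 95% exact binomial intervals (bars). In libraries B and C all members lie above 64%, while in library A they run from 0.987% for Bub1 to 100% for Aurkb.

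After thinning, 17 cells of library A held 5 or more members, as given above. All 12 ATII markers were detected in them, but 5 of these markers were at least 2-fold lower than in cells with no member. The 17 cells had Sftpc at 164445 CPM, against 256366 CPM in the 13851 cells with no member, and no UMI of Ptprc or of the macrophage marker Cd68. The epithelial marker Epcam was at 982 CPM, against 234 CPM in cells with no member. Of the 3 epithelial markers measured in A, Epcam alone rose past 2-fold, while 1 other fell past it. The 2 airway secretory markers measured in A also fell past 2-fold. Pecam1, an endothelial gene, was at 54.0 CPM, against 86.1 CPM in cells with no member, on 5 UMIs in the 17 cells. The 5 ATII markers at least 2-fold lower were Sftpa1, Slc34a2, Lyz2, Lpcat1 and Cxcl15, with log2 ratios of -1.04, -1.43, -1.57, -1.09 and -1.44. Of 9 transitional markers measured in A, 4 were at least 2-fold higher and none lower. These were Krt7 (1.08), Krt19 (1.72), Lgals3 (1.39) and Sprr1a (2.45), on 13 to 36 UMIs each in the 17 cells. Of 4 type I markers 1, Clic5 (1.52), was higher and 1, Aqp5 (-1.18), lower, and Hopx, too low in A to be counted, was at 54.0 CPM, against 9.18 CPM in cells with no member, on 5 UMIs. With so few cells, 19.0% of all 7273 genes measured were 2-fold higher and 15.4% lower. Krt19, Lgals3 and Hopx had the opposite direction in B and C, given next, and the difference between the libraries was not tested. The 17 cells had a median of 5266 UMIs, against 3764 in cells with no member.

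The cells of libraries B and C with 5 or more members (member-rich), set against cells with none (member-free), were described after the values above had been seen, and the members themselves are left out since they chose the cells. They had Sftpc at 117525 CPM in member-rich and 134171 CPM in member-free cells of B (-0.19) and at 98965 CPM in member-rich and 125752 CPM in member-free cells of C (-0.35). Epcam was at 493 CPM in member-rich and 319 CPM in member-free cells of B (0.63) and at 510.1 CPM in member-rich and 313 CPM in member-free cells of C (0.70). Ptprc had no UMI in the member-rich cells of either library. Median UMIs per cell were 11335 against 8092 in B and 5299 against 3278 in C, so member-rich cells were also the deeper ones. Of all genes with at least 10 CPM in the library, 5.53% in B and 6.17% in C were at least 2-fold higher in the member-rich cells, and 1.03% and 1.52% were at least 2-fold lower.

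Other genes of mitosis rose with the members: 39 of 41 measured in B and 51 of 53 in C were at least 2-fold higher, with medians of 3.69 and 3.57 on the log2 scale, against 0.15 and 0.18 over all genes. Ckap2l, a spindle protein, was at 88.6 CPM in member-rich and 0.553 CPM in member-free cells of B (5.85) and at 80.3 CPM in member-rich and 0.356 CPM in member-free cells of C (5.91). Genes of S phase rose in 27 of 27 in B and 29 of 31 in C. Rrm2, the ribonucleotide reductase subunit made in S phase, was at 79.0 CPM in member-rich and 2.43 CPM in member-free cells of B (4.54) and at 80.9 CPM in member-rich and 2.96 CPM in member-free cells of C (4.37). Of the genes of the APC/C and the checkpoint, 7 of 20 rose in B and 8 of 21 in C. They included Mad2l1, the checkpoint protein that binds Cdc20, at 69.4 CPM in member-rich and 6.82 CPM in member-free cells of B (3.17) and at 83.5 CPM in member-rich and 8.30 CPM in member-free cells of C (3.18). They also included the APC/C activator Fzr1 (Cdh1), at 58.5 CPM in member-rich and 11.9 CPM in member-free cells of B (2.21) and at 60.7 CPM in member-rich and 17.5 CPM in member-free cells of C (1.73). Of the genes of G1 and arrest, 2 of 17 in B and 2 of 16 in C rose, the CDK inhibitors Cdkn2d and Cdkn2c, and none fell 2-fold. Cdkn2d was at 92.0 CPM in member-rich and 10.9 CPM in member-free cells of B (2.97) and at 96.4 CPM in member-rich and 13.2 CPM in member-free cells of C (2.77).

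Several markers of alveolar type I cells and of the transitional state were lower in the member-rich cells. Of the 6 type I markers measured in B, 3 fell at least 2-fold, and of 7 in C, 5 did, while none rose. Hopx, a type I transcriptional regulator, was at 15.1 CPM in member-rich and 49.7 CPM in member-free cells of B (-1.65) and at 27.0 CPM in member-rich and 142 CPM in member-free cells of C (-2.35). Of the 10 transitional markers, 4 fell in B and 4 in C and none rose, and of 3 airway secretory markers 2 fell in each library. Lgals3, galectin-3, was at 126 CPM in member-rich and 286 CPM in member-free cells of B (-1.18) and at 80.4 CPM in member-rich and 266 CPM in member-free cells of C (-1.71). Krt19, a keratin of that state, was at 172 CPM in member-rich and 298 CPM in member-free cells of B (-0.79, interval -0.88 to -0.71) and at 178 CPM in member-rich and 367 CPM in member-free cells of C (-1.04, interval -1.11 to -0.97). Retnla, which mouse macrophages and lung epithelium make under IL-4, was at 10062 CPM in member-rich and 12307 CPM in member-free cells of B (-0.29) and at 20602 CPM in member-rich and 24325 CPM in member-free cells of C (-0.24).

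Pcna, the replication clamp, and Mcm5, a subunit of the replicative helicase, are S phase genes outside the set, and cells with a UMI of either were compared with cells with neither, called positive and negative cells below. Nearly all members were higher in the cells with such a UMI. Their summed level was 3240 CPM, against 1054 CPM, in library B (945 against 4648 cells) and 3732 CPM, against 1731 CPM, in library C (1344 against 13236 cells). Of the 33 members with at least 10 CPM, 31 were at least 2-fold higher in B, where 1.9% of all 6727 genes tested were, and 25 were in C, where 2.0% of 6645 were. No member was 2-fold lower, as were 0.0% and 0.376% of all genes. The 25 of C were all among the 31 of B. The median log2 ratio over the members was 1.61 in B and 1.19 in C, against 0.05 and 0.09 over all genes. Here and below the log2 ratio carries a pseudocount of 1 CPM and its interval, that of the count ratio, carries none, so for low levels the point can lie near or past the end of the interval.

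Pclaf had the largest ratio. It was at 156 CPM in positive and 24.7 CPM in negative cells of B (2.61, interval 2.54 to 2.78) and at 296 CPM in positive and 70.5 CPM in negative cells of C (2.06, interval 1.99 to 2.15). Fbxo5 (Emi1), which restrains the APC/C through S phase and G2, was at 35.6 CPM in positive and 7.72 CPM in negative cells of B (2.07) and at 39.3 CPM in positive and 10.0 CPM in negative cells of C (1.87). Pbk was at 58.3 CPM in positive and 11.5 CPM in negative cells of B (2.24) and at 84.7 CPM in positive and 27.1 CPM in negative cells of C (1.61). These 3 had the highest mean ratio of the 2 libraries. At the other end, Cdkn3, a CDK phosphatase, was at 57.6 CPM in positive and 29.5 CPM in negative cells of B (0.94) and at 61.8 CPM in positive and 47.7 CPM in negative cells of C (0.36). Ccnb2 was at 69.4 CPM in positive and 34.2 CPM in negative cells of B (1.0004) and at 72.9 CPM in positive and 55.7 CPM in negative cells of C (0.38). Cenpa was at 116 CPM in positive and 60.7 CPM in negative cells of B (0.92) and at 138 CPM in positive and 99.5 CPM in negative cells of C (0.47). All 35 intervals lay above 0 in each library, these included. Counts of intervals, here and below, are of members alone, and the share of all genes with such intervals is not given.

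The remaining core genes lay between these ends. Cdk1 was at 142 CPM in positive and 42.2 CPM in negative cells of B (1.73) and at 164 CPM in positive and 69.7 CPM in negative cells of C (1.23). Top2a was at 253 CPM in positive and 65.1 CPM in negative cells of B (1.94) and at 287 CPM in positive and 92.0 CPM in negative cells of C (1.63). Aurkb was at 46.1 CPM in positive and 11.8 CPM in negative cells of B (1.88) and at 57.4 CPM in positive and 19.8 CPM in negative cells of C (1.49). The ratios of these 3 were past 2-fold in both libraries. Aurka was at 54.9 CPM in positive and 17.3 CPM in negative cells of B (1.61) and at 62.4 CPM in positive and 31.5 CPM in negative cells of C (0.96). Cdc20 was at 93.9 CPM in positive and 37.5 CPM in negative cells of B (1.30) and at 107 CPM in positive and 72.7 CPM in negative cells of C (0.55). Ube2c was at 404 CPM in positive and 156 CPM in negative cells of B (1.37) and at 426 CPM in positive and 279 CPM in negative cells of C (0.61). These 3 passed the 2-fold line in B and not in C.

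Of the other lists, S phase genes were higher by 2-fold in 26 of 27 in B and 30 of 31 in C, a list that holds Pcna and Mcm5 themselves. Mcm3, another helicase subunit, was at 34.8 CPM in positive and 4.35 CPM in negative cells of B (2.74) and at 57.8 CPM in positive and 11.4 CPM in negative cells of C (2.24). Other mitotic genes were higher in 28 of 41 and 25 of 53, and genes of the APC/C and the checkpoint in 1 of 20 and 0 of 21. Genes of G1 and arrest were higher in 1 of 17 and 0 of 16.

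In library A, where 2123 cells had a Pcna or Mcm5 UMI, the members summed to 128 CPM in those cells (121 to 136) and to 89.4 CPM in the 14244 cells without (86.9 to 92.0). Cells with 5 or more members, after thinning, made up 0.285% of the A cells with a UMI, against 0.0787% of those without. In B they made up 33.5%, against 8.42%, and in C 41.5%, against 14.1%. Cells with a Pcna or Mcm5 UMI were deeper, with medians of 10190 against 7977 UMIs in B and 4815 against 3249 in C. When both the groups and the counts were taken from cells thinned to 2000 UMIs, 16 members were at least 2-fold higher in B and 15 in C, with medians of 1.03 and 0.96, where 1.77% of all genes in B and 1.65% in C were. None was 2-fold lower, as were 2.43% and 0.457% of all genes. Scaling by TMM in place of totals lowered the all-gene median of C by 0.16. It left 19 members at least 2-fold higher there, where 1.5% of all genes were.

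Within cells that already held 5 or more other members, a comparison added after values were seen, members had ratios of both signs. In B this rested on the cut at 5 other members, as given below. Positive cells were deeper here too, for Fbxo5 with medians of 11634 against 9268 UMIs in B and 5600 against 4839 in C. The part of depth in these ratios was not tested. Pclaf was still higher in cells with a Pcna or Mcm5 UMI, at 283 CPM in positive and 139 CPM in negative cells of B (1.02, interval 0.90 to 1.14) and at 451 CPM in positive and 287 CPM in negative cells of C (0.65, interval 0.57 to 0.74). Fbxo5 had ratios of 0.58 in B and 0.51 in C, Smc2 of 0.54 in B and 0.24 in C and Top2a of 0.36 in B and 0.21 in C, each with its interval above 0. Other members had negative ratios. Cenpa was at 208 CPM in positive and 341 CPM in negative cells of B (-0.71, interval -0.82 to -0.61) and at 214 CPM in positive and 389.9 CPM in negative cells of C (-0.86, interval -0.97 to -0.76). Ccnb2 was at 124 CPM in positive and 192 CPM in negative cells of B (-0.63) and at 110.1 CPM in positive and 209 CPM in negative cells of C (-0.92). Cdkn3 was at 102.1 CPM in positive and 151 CPM in negative cells of B (-0.56) and at 93.98 CPM in positive and 183 CPM in negative cells of C (-0.96). Cdc20 had ratios of -0.37 in B and -0.87 in C, Ube2c of -0.31 in B and -0.78 in C and Ccnb1 of -0.20 in B and -0.76 in C.

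In B, 10 members had an interval above 0 and 9 below, and in C 7 above and 19 below. With TMM scaling these were 10 and 9 in B and 5 and 19 in C. In thinned cells the intervals of 1 member in B and 3 in C lay above 0, and of 6 and 10 below, with Pclaf at 0.63 and 0.72, Fbxo5 at 0.09 and 0.29, Smc2 at 0.47 and 0.21, and Cenpa at -0.66 and -1.03. With cells of 3 or more other members, 31 intervals lay above 0 and 1 below in B, and 11 above and 14 below in C. The ratios of Cdc20, Ube2c and Ccnb1 in B then turned to 0.21, 0.24 and 0.40. Those of Cenpa, Ccnb2 and Cdkn3 there were -0.15, -0.08 and -0.07.

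**Figure D3:**
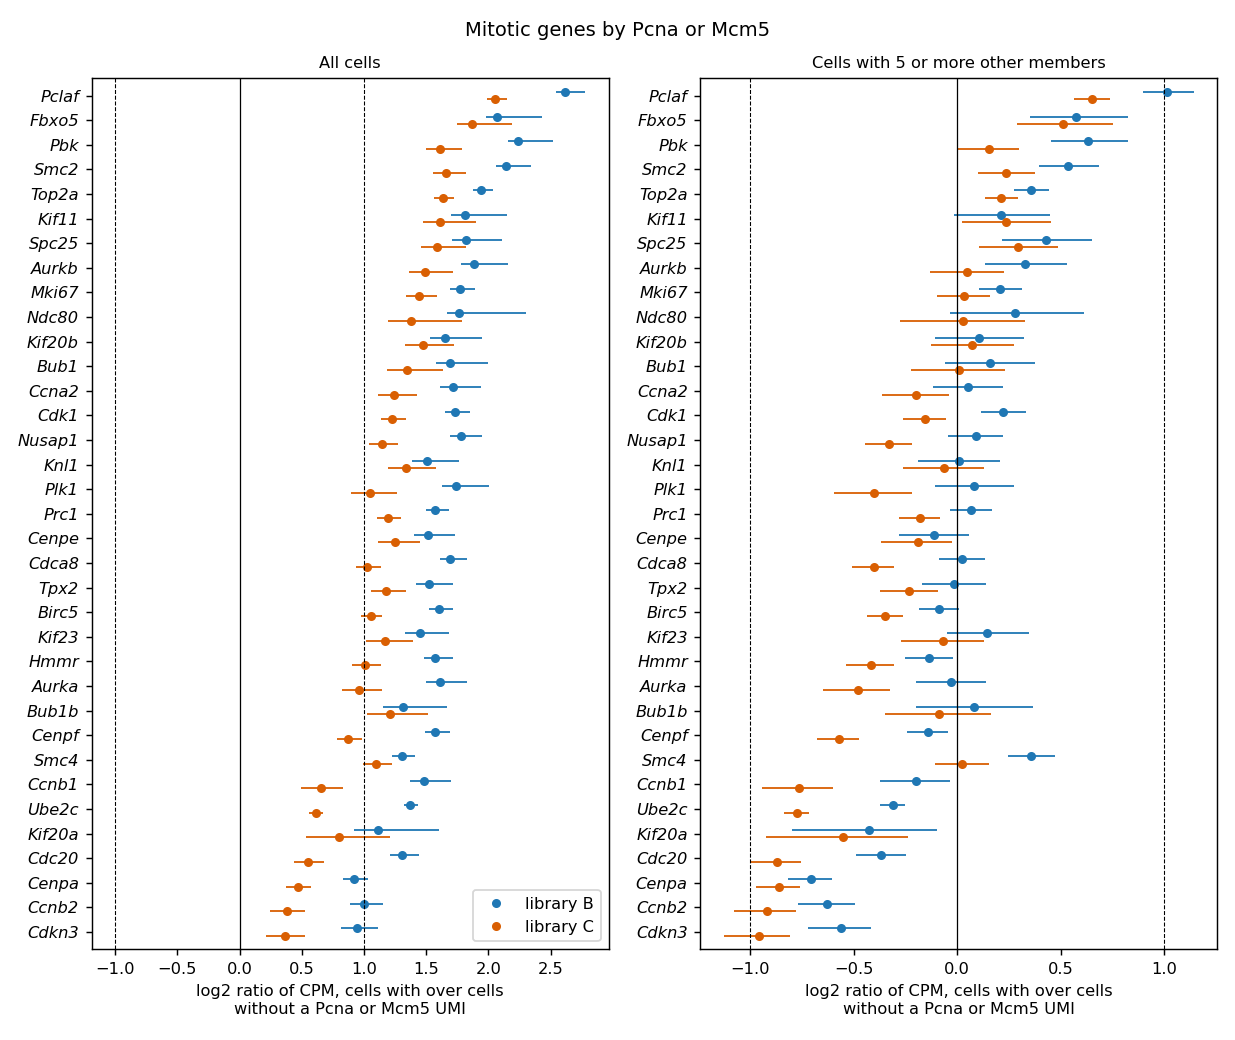
Log2 ratio of CPM, cells with over cells without a Pcna or Mcm5 UMI, for each member in libraries B and C (points) with the 95% exact interval of the count ratio (bars), over all cells (left) and within cells with 5 or more other members (right). Over all cells the ratios run from 0.36 to 2.61, while within member-rich cells Pclaf, Fbxo5 and Smc2 lie above 0 and Cenpa, Ccnb2 and Cdkn3 below it. In cells with 3 or more other members, not drawn, 31 intervals of B lie above 0 and 1 below.

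In libraries B and C the share of a cell's UMIs taken by Retnla spanned under 0.1% to 4% or more, and it is a measured level, not a label of treatment. Cells with Retnla at 1% or more of UMIs (Retnla-high) were set against cells under 0.1% (Retnla-low). In library B (2310 against 1567 cells) the members summed to 1314 CPM, against 2207 CPM. In library C (7595 against 6018 cells) they summed to 2001 CPM, against 1992 CPM. The median log2 ratio over the 33 measured members was -0.63 in B and -0.02 in C, against -0.10 and -0.07 over all genes. Over all 35 members, as used for thinned cells and the other Retnla cuts below, it was -0.69 in B and -0.02 in C. One member, Cdc20, fell past 2-fold in B, where 2.66% of all genes did, none did in C, where 2.05% did, and none rose past 2-fold (2.16% of genes in B and 1.78% in C).

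Cdc20 was at 38.0 CPM in Retnla-high and 84.9 CPM in Retnla-low cells of B (-1.14, interval -1.30 to -1.02) and at 73.5 CPM in Retnla-high and 83.4 CPM in Retnla-low cells of C (-0.18, interval -0.27 to -0.09). Kif20a, too low to be counted, was at 4.47 CPM in Retnla-high and 11.0 CPM in Retnla-low cells of B (-1.13) and at 8.37 CPM in Retnla-high and 8.94 CPM in Retnla-low cells of C (-0.09). Ccnb2 was at 32.9 CPM in Retnla-high and 65.2 CPM in Retnla-low cells of B (-0.96) and at 56.2 CPM in Retnla-high and 60.9 CPM in Retnla-low cells of C (-0.11). Birc5 was at 61.8 CPM in Retnla-high and 125 CPM in Retnla-low cells of B (-0.999) and at 122 CPM in Retnla-high and 117 CPM in Retnla-low cells of C (0.06). The all-gene median of B was itself below 0, at -0.10, and the share of all genes by interval is not given. In B the intervals of 34 of the 35 members lay below 0 at full depth, and of 19 in thinned cells. The exception was Fbxo5, at 14.4 CPM in Retnla-high and 14.2 CPM in Retnla-low cells of B (0.02, interval -0.26 to 0.31) and at 16.3 CPM in Retnla-high and 9.81 CPM in Retnla-low cells of C (0.68, interval 0.49 to 0.97). Pbk was at 20.3 CPM in Retnla-high and 27.2 CPM in Retnla-low cells of B (-0.41) and at 38.7 CPM in Retnla-high and 28.7 CPM in Retnla-low cells of C (0.42), and Ccna2 at 23.6 CPM in Retnla-high and 33.3 CPM in Retnla-low cells of B (-0.48) and at 34.99 CPM in Retnla-high and 27.4 CPM in Retnla-low cells of C (0.34). In C, 6 members had intervals above 0, 6 below, and 23 held 0. In thinned cells of C, 6 were above 0 and 3 below.

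Retnla-high cells were deeper, with a median of 9319 against 6468 UMIs in B and 3636 against 3123 in C. In thinned cells 1 member in B, Pbk, had an interval above 0 (0.60, interval 0.07 to 1.23), and the median over the members was -0.47 in B and 0.03 in C, with 1 member 2-fold lower in B, where 3.48% of all genes were, and none in C, where 2.16% were. None was 2-fold higher, as were 2.53% and 1.78% of all genes. Leaving out the 5% of cells with the most UMIs brought the members at least 2-fold lower in B to 9, where 2.88% of all genes were (2.18% higher). TMM scaling, which raised the all-gene median of B by 0.14, put Cdc20 at -0.99 and left 0 members called (1.96% of all genes lower, 2.54% higher). Retnla-high cells also differed in cell state. Of the transitional markers, 8 of 10 fell in B and 6 of 10 in C, and of the type I markers 5 of 6 in B and 6 of 7 in C, while 2 of 3 airway secretory markers rose in each library. Of the genes of G1 and arrest, Cdkn2b, an inhibitor of the cyclin D kinases, was at 23.2 CPM in Retnla-high and 63.3 CPM in Retnla-low cells of B (-1.41) and at 20.7 CPM in Retnla-high and 56.1 CPM in Retnla-low cells of C (-1.40). Cdkn1a (p21) was at 82.04 CPM in Retnla-high and 185 CPM in Retnla-low cells of B (-1.16) and at 69.1 CPM in Retnla-high and 138 CPM in Retnla-low cells of C (-0.99). The part of these in the members' values was not tested.

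The relation to Retnla was not a steady one across its range. In 5 bands from low to high (under 0.1%, 0.1 to 1%, 1 to 2%, 2 to 4% and 4% or more), drawn after the first values were seen, cells with 5 or more members made up 16.2%, 11.3%, 11.3%, 12.1% and 7.39% of library B. In library C they made up 15.7%, 14.4%, 23.8%, 22.2% and 12.0%. The summed level of the members followed the same course in C, at 1992, 1688, 2624, 2459 and 1387 CPM, and in B it was 2207, 1283, 1279, 1453 and 875 CPM. In C the bands of 1 to 4% were the highest and the top band the lowest. With 4% or more against under 0.1%, 26 members fell at least 2-fold in B (176 against 1567 cells), where 9.41% of all genes did, with a median of -1.28. In C (3419 against 6018 cells) none fell 2-fold, where 2.48% of all genes did, and the median was -0.54. None rose 2-fold, as did 2.08% of all genes in B and 1.84% in C. With the 1398 cells of highest against the 1398 of lowest Retnla share in B, and 3645 against 3645 in C, 7 members fell in B (2.88% of all genes) and 1 in C (2.5%), and none rose (2.2% and 1.79%), with medians of -0.69 in B and -0.69 in C.

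Within cells that had a Pcna or Mcm5 UMI, the split by Retnla gave medians of -0.26 in B (420 against 266 cells) and -0.06 in C (819 against 458 cells), and no member passed 2-fold, against 1.99% and 2.39% of all genes lower and 2.38% and 1.69% higher. Bub1b had the lowest mean ratio of the set, at 20.3 CPM in Retnla-high and 32.0 CPM in Retnla-low cells of B (-0.63) and at 24.5 CPM in Retnla-high and 33.8 CPM in Retnla-low cells of C (-0.45). Fbxo5 had the highest, at 39.3 CPM in Retnla-high and 39.4 CPM in Retnla-low cells of B (-0.00083) and at 43.8 CPM in Retnla-high and 28.7 CPM in Retnla-low cells of C (0.60). Kif20a was at 9.31 CPM in Retnla-high and 18.9 CPM in Retnla-low cells of B (-0.95) and at 13.8 CPM in Retnla-high and 14.6 CPM in Retnla-low cells of C (-0.07) and Ndc80 at 17.8 CPM in Retnla-high and 24.2 CPM in Retnla-low cells of B (-0.42) and at 17.2 CPM in Retnla-high and 24.0 CPM in Retnla-low cells of C (-0.46), while Ccna2 was at 61.3 CPM in Retnla-high and 60.3 CPM in Retnla-low cells of B (0.02) and at 67.2 CPM in Retnla-high and 60.1 CPM in Retnla-low cells of C (0.16) and Pbk at 61.8 CPM in Retnla-high and 66.8 CPM in Retnla-low cells of B (-0.11) and at 89.6 CPM in Retnla-high and 76.1 CPM in Retnla-low cells of C (0.23). Thinned, with 100 against 98 cells in B, 4 members were 2-fold higher and 2 lower, where 11.4% and 14.9% of all genes were, and with 379 against 222 cells in C none was higher and 1 lower, where 5.24% and 7.87% of all genes were. The share of cells with 5 or more members was 34.3% in Retnla-high cells, against 35.7% in Retnla-low cells, with a Pcna or Mcm5 UMI in B. Without such a UMI it was 6.19%, against 12.2%, in B. In C these shares were 43.2%, against 37.9%, with a UMI and 14.6%, against 13.7%, without.

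Krt19 marks cells on the way from ATII toward type I identity in mouse lung. Cells with 2 or more Krt19 UMIs (Krt19-high) were set against cells with 0 (Krt19-negative), and at full depth no member passed 2-fold. The members summed to 1550 CPM, against 1372 CPM, in B (2785 against 1353 cells) and to 1889 CPM, against 1893 CPM, in C (3709 against 6915 cells). No member was 2-fold higher (0.832% of all genes in B and 1.76% in C were) or lower (0.0% and 0.271%). The median log2 ratio was 0.19 in B and -0.03 in C, against -0.01 and 0.03 over all genes.

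After thinning most members were lower in Krt19-high cells. In cells thinned to 2000 UMIs, with Krt19 also counted in the thinned cells, the members summed to 608 CPM, against 1348 CPM, in B (810 against 3553 cells) and to 702 CPM, against 1762 CPM, in C (1879 against 8277 cells). Of 32 members measured there in B, 18 fell at least 2-fold, where 5.06% of all genes did, and of 33 in C, 29 did, where 2.45% did. None was 2-fold higher, as were 3.54% and 3.09% of all genes. The medians were -1.13 in B and -1.37 in C, and the intervals of 30 and 35 members lay below 0. Cells with 2 or more thinned Krt19 UMIs had a median depth of 5960 UMIs, against 8830, in B and of 3156, against 3621, in C, while at full depth those with 2 or more had 8518, against 7854, in B and 3481, against 3207, in C, and the part of depth in the change was not tested. The level of Krt19 itself was lower in member-rich than in member-free cells of both libraries, as given above. Those cells were chosen by their members in thinned cells, so this is the same relation under another cut, not separate support.

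At full depth, Pclaf was at 40.9 CPM in Krt19-high and 65.2 CPM in Krt19-negative cells of B (-0.66, interval -0.81 to -0.53) and at 81.4 CPM in Krt19-high and 107 CPM in Krt19-negative cells of C (-0.40, interval -0.50 to -0.30). In thinned cells its ratios were -1.92 in B and -1.80 in C, so its direction held at either depth. Bub1 was at 13.6 CPM in Krt19-high and 16.6 CPM in Krt19-negative cells of B (-0.27) and at 13.1 CPM in Krt19-high and 16.2 CPM in Krt19-negative cells of C (-0.29). Pbk was at 19.4 CPM in Krt19-high and 22.1 CPM in Krt19-negative cells of B (-0.18) and at 28.4 CPM in Krt19-high and 36.8 CPM in Krt19-negative cells of C (-0.37). At the other end, Cenpf, a kinetochore protein of G2 and mitosis, was at 78.9 CPM in Krt19-high and 59.4 CPM in Krt19-negative cells of B (0.40) and at 98.1 CPM in Krt19-high and 81.9 CPM in Krt19-negative cells of C (0.26). Ube2c was at 232 CPM in Krt19-high and 162 CPM in Krt19-negative cells of B (0.52) and at 296 CPM in Krt19-high and 269 CPM in Krt19-negative cells of C (0.14), and Ccnb1 at 26.4 CPM in Krt19-high and 20.5 CPM in Krt19-negative cells of B (0.35) and at 38.4 CPM in Krt19-high and 31.0 CPM in Krt19-negative cells of C (0.30). Thinned, the ratios of these 3 were -1.52 in B and -1.30 in C for Cenpf, -0.96 in B and -1.09 in C for Ube2c, and -1.61 in B and -1.43 in C for Ccnb1.

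**Figure D4:**
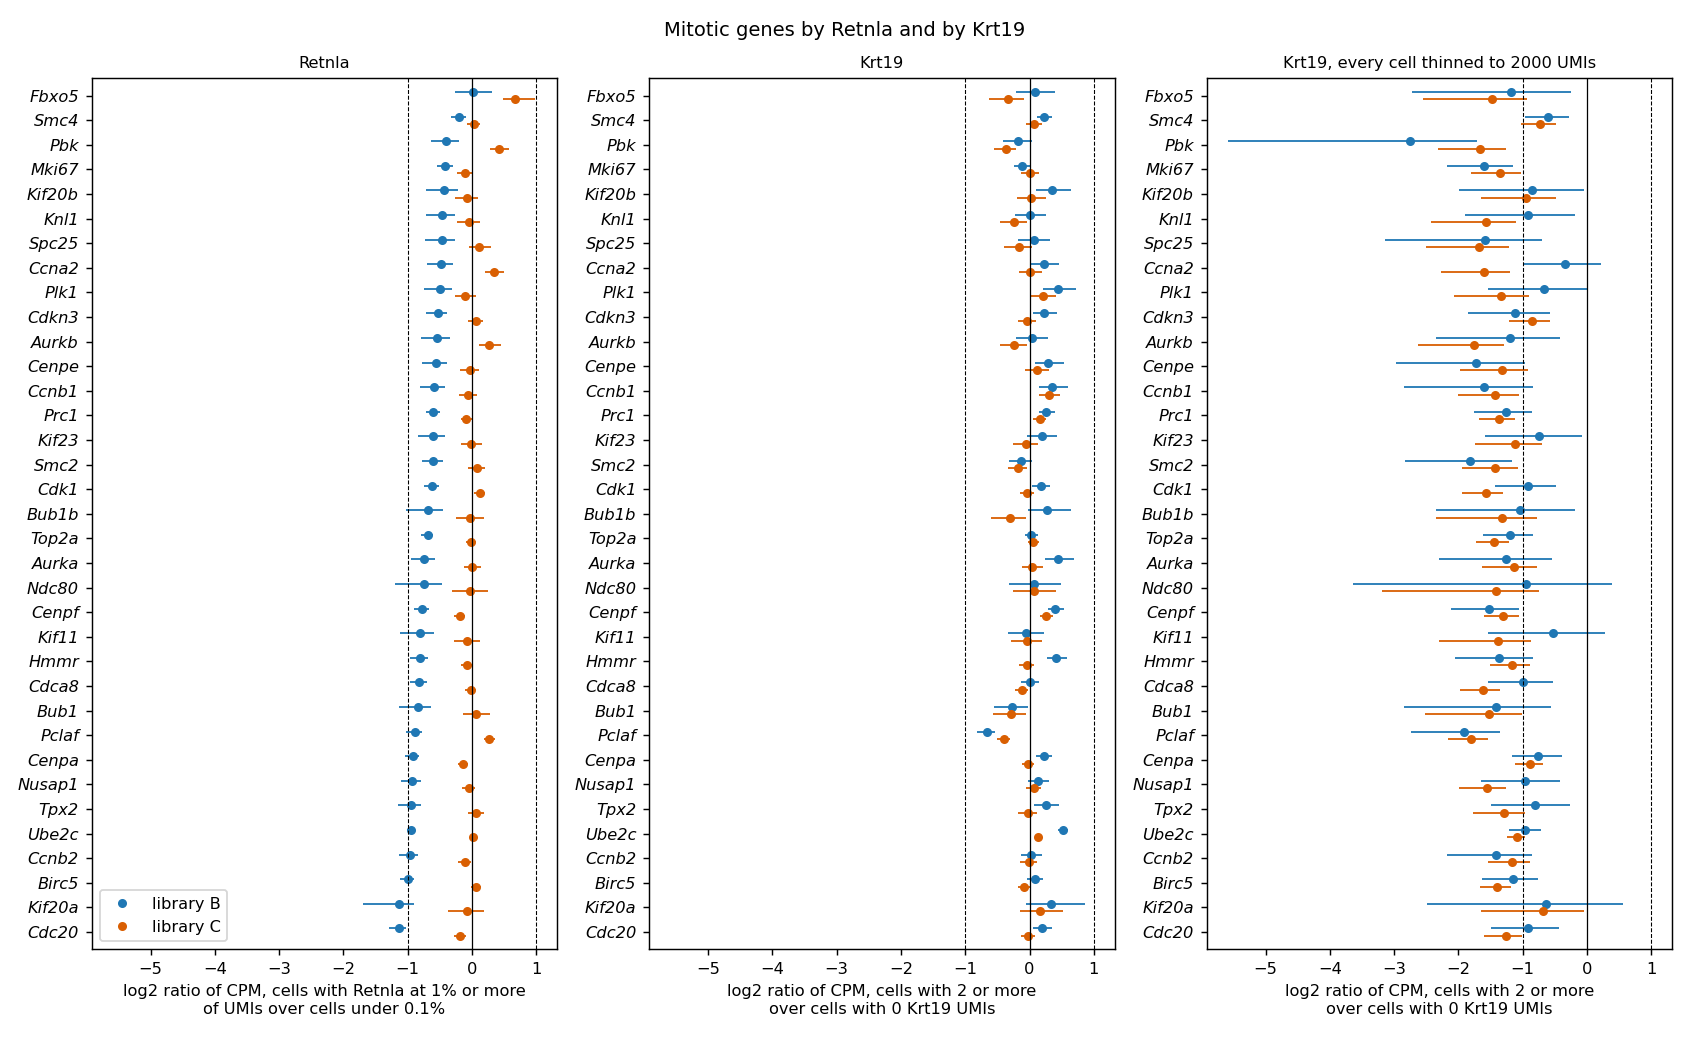
Log2 ratio of CPM for each member in libraries B and C (points) with the 95% exact interval of the count ratio (bars). The left panel shows Retnla-high over Retnla-low cells. The middle panel shows cells with 2 or more over cells with 0 Krt19 UMIs at full depth. The right panel has the same cut with Krt19 counted again in cells thinned to 2000 UMIs, so group membership also changed. In B nearly all members lie below 0 for Retnla and in C around it, and the Krt19 ratios lie around 0 at full depth and below 0 after thinning.

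Cells with 5 or more members, in thinned cells with 0, 1 and 2 or more Krt19 UMIs, made up 14.4%, 12.4% and 5.80% of library B and 19.7%, 14.96% and 6.81% of library C. With Krt19 counted at full depth these shares were 12.9%, 14.0% and 11.9% in B and 17.3%, 18.5% and 13.9% in C. Beside this, Cdkn2b was at 48.7 CPM in Krt19-high and 20.7 CPM in Krt19-negative cells of B (1.20) and at 58.6 CPM in Krt19-high and 25.0 CPM in Krt19-negative cells of C (1.20), and the transitional markers rose in 7 of 10 in B and 8 of 10 in C, a list that holds Krt19 itself, as did the type I markers in 3 of 6 and 4 of 7. S phase genes had medians of -0.32 in B and -0.33 in C at full depth, with none past 2-fold.

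**Figure D5:**
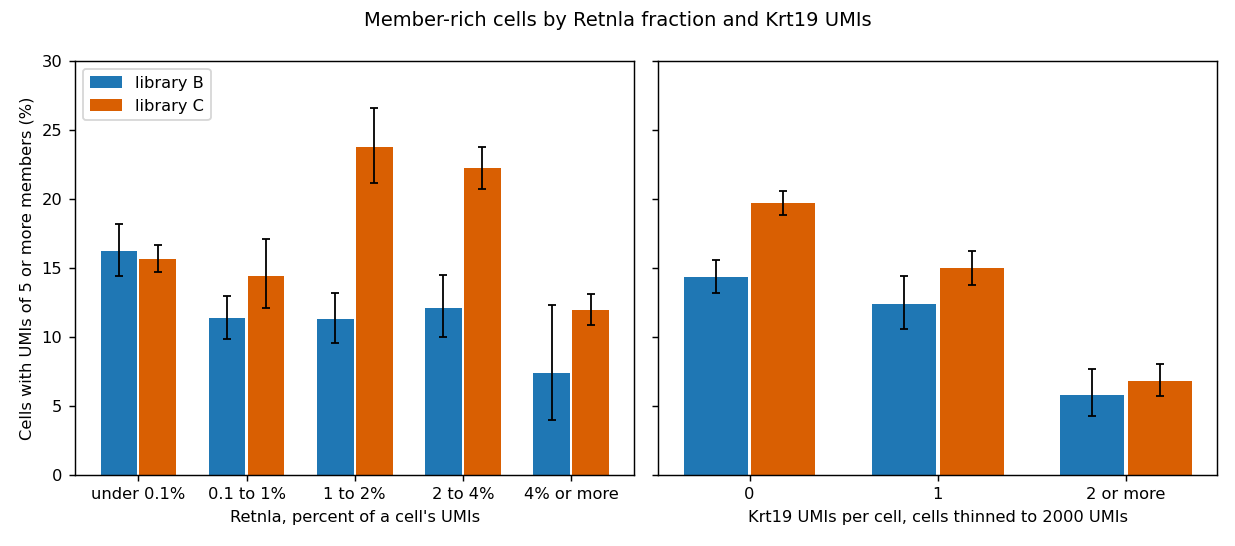
Percent of cells with UMIs of 5 or more members after thinning to 2000 UMIs (bars, from 0) in libraries B and C, with 95% exact binomial intervals, by Retnla share of a cell's UMIs (left, low to high) and by Krt19 UMIs in thinned cells (right, low to high). In library C the share is 23.8% in the 1 to 2% Retnla band and 12.0% at 4% or more, and in both libraries it is lowest with 2 or more Krt19 UMIs.

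Split by both genes at full depth, library B had 13.2% of cells with 5 or more members where Retnla was high and Krt19 was 2 or more, and 8.88% where Retnla was high and Krt19 was 0. Where Retnla was low, B had 12.3% with Krt19 at 2 or more and 24.7% with Krt19 at 0, on 235 thinned cells. In library C the shares were 20.02% with both high and 17.0% with Retnla high and Krt19 at 0. With Retnla low they were 11.5% in C with Krt19 at 2 or more and 18.3% with Krt19 at 0.

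Within cells with a Pcna or Mcm5 UMI, the full-depth split by Krt19 gave medians of 0.29 in B (472 against 221 cells) and 0.06 in C (323 against 643 cells), and no member passed 2-fold, against 1.04% and 2.21% of all genes higher and 0.0446% and 0.497% lower. Pclaf was at 111 CPM in Krt19-high and 219.7 CPM in Krt19-negative cells of B (-0.98, interval -1.16 to -0.80) and at 245 CPM in Krt19-high and 335 CPM in Krt19-negative cells of C (-0.45, interval -0.62 to -0.28). Ube2c was at 466 CPM in Krt19-high and 252 CPM in Krt19-negative cells of B (0.88) and at 482 CPM in Krt19-high and 392 CPM in Krt19-negative cells of C (0.30). Ccnb1 was at 57.1 CPM in Krt19-high and 37.4 CPM in Krt19-negative cells of B (0.60) and at 67.9 CPM in Krt19-high and 46.1 CPM in Krt19-negative cells of C (0.55), and Cenpa at 131 CPM in Krt19-high and 74.3 CPM in Krt19-negative cells of B (0.81) and at 150.1 CPM in Krt19-high and 124 CPM in Krt19-negative cells of C (0.27). Bub1 was at 30.5 CPM in Krt19-high and 38.3 CPM in Krt19-negative cells of B (-0.32) and at 27.0 CPM in Krt19-high and 39.5 CPM in Krt19-negative cells of C (-0.53), and Fbxo5 at 32.6 CPM in Krt19-high and 31.4 CPM in Krt19-negative cells of B (0.05) and at 28.2 CPM in Krt19-high and 45.4 CPM in Krt19-negative cells of C (-0.67). Thinned, 36 cells in B and 75 in C were left with 2 or more Krt19 UMIs. In B 1 member was at least 2-fold higher and 10 lower, where 15.5% and 25.2% of all genes were, and in C none was higher and 21 lower, where 9.54% and 17.4% were.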

How the data were processed

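The measured values are UMI counts per gene and cell, deposited by the authors as 1 matrix for all libraries. Per the submitters' processing notes, bcl2fastq and Cell Ranger 6.0.1 were used with the builds GRCm38 and mm10. Cell calling, doublet removal and the assignment of cells to tags are not given in the sources used here. Identifiers were matched to symbols with GENCODE annotation on GRCm38, and 233 had none. Cells with at least 1000 UMIs, 500 genes and at most 15% mitochondrial UMIs were kept, 36540 of 36584. Libraries were read from the barcode text. No doublet caller was run; an alternative left out the 5% of cells with the most UMIs.

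Each group of cells was summed to 1 count per gene and scaled by its total, in CPM. Log2 ratios carry a pseudocount of 1 CPM. A gene was counted as higher or lower at a ratio of at least 2-fold, among genes with at least 10 CPM over all cells of the library. Intervals are 95% exact Poisson, binomial (Clopper-Pearson) or conditional ratio intervals. Thinning drew 2000 UMIs per cell and left shallower cells out. The script for sums and calls was tested on simulated data. No test across samples was made. Members and lists were chosen with earlier results of these data known. Genes named singly are the 3 members with the highest and lowest mean ratio of each comparison, the 5 with the highest level, 12 fixed members, and up to 4 genes of each other list with the largest ratio. Others (Ccna2 by level, Bub1b, Nusap1, Hmmr, Smc2, Ndc80 and the marker genes) were chosen after their values were seen. Tools were scipy 1.17.1, pandas 2.3.3, numpy 2.4.6 and matplotlib 3.10.9 under Python 3.11.15, and edgeR 4.0.16 under R 4.3.3 for TMM factors alone.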

Additional observations from a re-analysis of the deposited data

Results flagged for a closer look

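In the split by Retnla share, 5 members had opposite directions in libraries B and C at full depth, with both counting intervals clear of 0. Since 34 of the 35 intervals in B lay below 0, a member above 0 in C was nearly bound to be opposite. The share of all genes with such opposite directions is not given here. The log2 ratio, Retnla-high over Retnla-low cells, was -0.63 in B and 0.12 in C for Cdk1, -0.48 in B and 0.34 in C for Ccna2, and -0.55 in B and 0.27 in C for Aurkb. It was -0.41 in B and 0.42 in C for Pbk, and -0.89 in B and 0.27 in C for Pclaf. Within cells with a Pcna or Mcm5 UMI, Pclaf was again opposite, at -0.58 in B and 0.27 in C. In cells thinned to 2000 UMIs the opposite directions, with both intervals clear of 0, held for Cdk1 (-0.42 in B and 0.23 in C) and Pclaf (-0.95 in B and 0.25 in C). Pbk was then positive in both libraries, at 0.60 in B and 0.51 in C. The B intervals of Ccna2 (-0.44, -0.93 to 0.01) and Aurkb (-0.25, -0.80 to 0.28) held 0. Between the 3645 cells of highest and the 3645 of lowest Retnla share in C, the median over the members was -0.69. At that cut 5 of the 12 C ratios with an interval clear of 0 had the opposite sign. Of these 12, 6 were positive at the cut reported, the 5 members here among them, so the opposite directions may rest on the cut. The difference between the libraries was not tested, since each is a sample with no replicate.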

How the results depend on the processing

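No paired analysis was possible because each group of the labels has 1 library and the cell groups lie within a library. Of 187 alternative values of the counts, shares and levels above, 142 stayed close to the value reported and 45 moved. Of single-member values 1809 stayed close and 641 moved, and of list values 72 and 68. No member past 2-fold changed sign, but of the 199 member ratios with an interval clear of 0, 49 had the opposite sign in thinned cells, among them 16 of the 18 by Krt19 in B and 4 of the 34 by Retnla in B. TMM turned 0 of 148, and a cut at 3 UMIs of Pcna and Mcm5 turned 7 of 70, all in C. The members at least 2-fold lower with Retnla in B were 1 as reported (2.66% of all genes). They were 0 with TMM (1.96%) and 2 at a minimum of 1 CPM (3.26%). Without the 5% of cells with the most UMIs they were 9 (2.88%). Between the 1398 cells of highest and of lowest share they were 7 (2.88%). They were 7 at 0.5% against 0.05% (2.48%), and 26 at 4% or more (9.41%). In C (0 as reported, 2.05% of all genes) the 3645 cells of highest against the 3645 of lowest share gave 1 (2.5%). There 5 of the 12 C ratios with an interval clear of 0 turned sign. Thinning to 2000 UMIs left 16 members in B (1.77% of all genes) and 15 in C (1.65%) higher with Pcna or Mcm5. It gave 18 in B (5.06%) and 29 in C (2.45%) lower with Krt19. A cut at 3 UMIs of Pcna and Mcm5 made 1 member lower in C, where 5.07% of all genes were. A cut at 4 Krt19 UMIs made 1 lower in B and 1 in C, where 0.268% and 2.72% of all genes were. Within cells with a Pcna or Mcm5 UMI, thinning gave 4 higher and 2 lower in B (11.4% and 14.9% of all genes) and 1 lower in C (7.87%) for Retnla, and 1 higher and 10 lower in B (15.5% and 25.2%) and 21 lower in C (17.4%) for Krt19. Within cells with 5 other members, thinning left intervals of 1 member in B and 3 in C above 0 and 6 in B and 10 in C below, and 3 or more other members gave 31 above and 1 below in B and 11 above and 14 below in C. Cells with 5 or more members made up 0.273% of A, 17.0% of B and 39.0% of C when thinned to 4000 UMIs, where only 4854 cells of C were left. Unthinned they were 19.3% of B and 19.4% of C, and without the 5% of cells with the most UMIs 0.0590%, 11.4% and 14.1%. Cells with 3 or more members were 16.7% of B and 21.5% of C, and with 10 or more 6.81% and 9.37%. Median detection at 4000 UMIs was 0.303%, 7.34% and 18.0%. In A, 14 members reached 1 CPM and 1 reached 20 CPM. With 150 bases of promoter, CHR and CHR with CCAAT were each in 27.6% of members. The cause of these shifts was not tested, apart from the smaller windows, the other cuts and the fewer cells that the settings themselves make. The alternatives by 4% Retnla and those within cells with 5 other members were chosen after seeing the data. At 2000 UMIs a count of 0 allows a share of cells with a UMI of up to 0.0187% in A, 0.0539% in B and 0.0226% in C, and the members rest on 15 to 1539 UMIs each in A. Days, ages and treatments cannot be told apart here.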
